A study of Mus musculus with 2 samples.

Results

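The genes described here are 38 genes of the actin cytoskeleton, taken by their symbols from the 28692 genes listed in both count tables. They were sorted by textbook role into actin monomers (2 genes), monomer binding and filament turnover (8), the Arp2/3 complex (7), nucleation promoters and small GTPases (5), proteins of filament ends (6), crosslinkers and tropomyosins (6), and linkers to membrane and adhesion sites (4). All 38 were found in both tables, and 35 reached 20 CPM in at least 1 library, where CPM is the gene's UMIs per 1000000 UMIs of the library and a UMI is a molecular identifier that counts each captured transcript once. Cap1, Tpm4 and Vcl stayed below that level. Because the assay reads the 3′ end of a transcript once whatever its length, levels of different genes are set side by side as UMIs.

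Bone marrow of C57BL/6 mice, enriched for stem and progenitor cells and drawn from 5 animals per the study's design text, was infected with a GFP-marked retrovirus, and GFP-positive LSK cells were sorted (cells without lineage markers that carry Sca-1 and Kit). The first group carried a short hairpin RNA (shRNA) against Cxxc5, a gene for a CXXC-type zinc finger protein. The second carried a control shRNA that matches no mouse gene. Both were grown for 3 days in DMEM with 20% fetal bovine serum, GM-CSF at 10 ng/ml and SCF at 10 ng/ml, which drives myeloid differentiation, and each was pooled from 5 samples into 1 droplet library. Whether both pools came from the same animals is not stated. With 1 library per group there is no replicate, no difference was tested, and every interval below covers counting error only. Any gap between the libraries may come from the pools, the infection or the droplet run as well as from the hairpin, and these cannot be told apart.

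Actin monomers polymerise into filaments that push the cell edge forward and carry a leukocyte through tissue. Profilin and the beta-thymosins hold the monomer pool, cofilin and its partners dismantle old filaments, the Arp2/3 complex starts branches when switched on by WASP-family proteins below Cdc42 and Rac, and capping proteins stop filament growth. Maturing neutrophils, monocytes and dendritic cells depend on this machinery for migration, phagocytosis and cell contacts.

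After filtering, 6004 Cxxc5 shRNA cells and 2912 control shRNA cells were kept, with medians of 10599 and 17197 UMIs per cell. The targeted transcript Cxxc5 had 73 UMIs (1.16 CPM) in the Cxxc5 shRNA library and 462 UMIs (9.38 CPM) in the control shRNA library, a log2 ratio of -3.01 (-3.39 to -2.65). The libraries shared 26 cell barcodes, and without those cells the summed level of the 38 genes was 2.12% and 2.22% of UMIs. After the culture, the summed markers of multipotent progenitors (6 genes) made up only 77.5 CPM in the Cxxc5 shRNA library and 85.2 CPM in the control shRNA library. Those of granulocyte-monocyte progenitors (8 genes) reached 20069.7 and 18702.5 CPM, and those of neutrophils (12 genes) 16847 and 21799 CPM. Of 7 lymphoid markers, Ms4a1, Cd3e, Trbc2 and Igkc were at 0 in both libraries.

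Over all cells, transcripts of the 38 genes took nearly the same part of both transcriptomes. They summed to 2.11% of UMIs in the Cxxc5 shRNA library and 2.22% in the control shRNA library, a log2 ratio of -0.07 (-0.08 to -0.07). None of the 35 measured genes was at least 1.2-fold higher in the Cxxc5 shRNA library, and 2, Actb and Capg, were at least 1.2-fold lower. Over all cells, of all 4798 genes of at least 20 CPM, 3.02% were that much higher and 4.06% that much lower. Among cells of 5000 to 20000 UMIs, 1 of 36 measured members was higher (Coro1c) and 6 were lower (Actb, Capg, Gsn, Vasp, Tpm4 and Tln1). Of 4851 genes there, 24.6% were higher and 8.93% lower. That window kept 5300 of 6004 Cxxc5 shRNA cells and 1754 of 2912 control shRNA cells. The shift was small but mostly one way: 28 of the 35 ratios lay below 0 and 7 above it. The share of all genes below 0 was not counted. The members' median log2 ratio was -0.11, against 0.04 over all measured genes. With shares of the cell classes described below set to those of the control shRNA library, the members' median was -0.06. Cell by cell the spread was wider than the gap, with a median share of 1.97% (quartiles 1.60 and 2.59%) in Cxxc5 shRNA cells and 2.17% (1.69 and 2.84%) in control shRNA cells. A few genes dominated the sum: Tmsb4x, Actb, Actg1, Arpc1b and Pfn1 held 67.2% and 66.1% of the UMIs of the 38 genes.

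**Figure D1:**
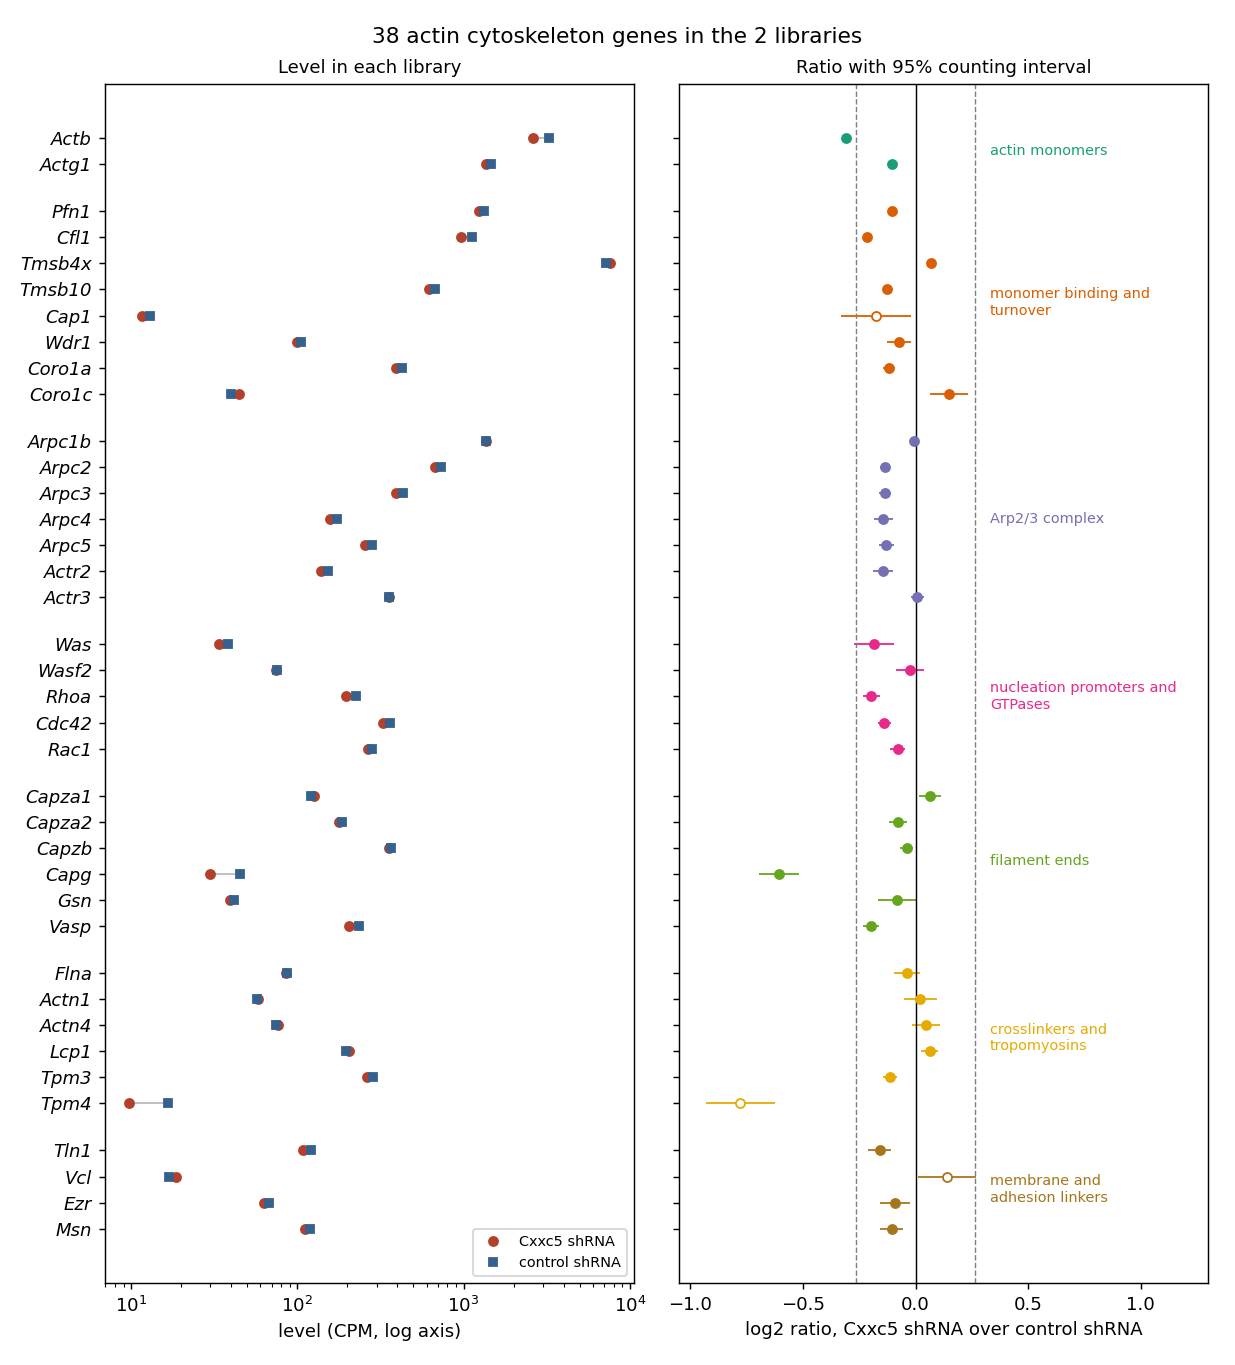
Level of each of the 38 genes in CPM on a log axis (left; circles are the Cxxc5 shRNA library, squares the control shRNA library) and the log2 ratio of Cxxc5 shRNA over control shRNA with its 95% counting interval (right), grouped by role. Open circles mark the genes below 20 CPM in both libraries and dashed lines mark 1.2-fold; Actb, Capg and the low-level Tpm4 lie left of the lower line, and no gene lies right of the upper line.

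The cytoplasmic actins differed in how far they were apart between the libraries. Actb, beta-actin (a protein-coding gene at chr5:142903115-142906754, minus strand, GRCm38), had 2634 CPM in the Cxxc5 shRNA library and 3264 CPM in the control shRNA library, a log2 ratio of -0.31 (-0.32 to -0.30). The ratio was -0.65 with each cell thinned to 5000 UMIs and -0.76 among cells of 5000 to 20000 UMIs. These settings change which cells count. Both leave out 641 Cxxc5 shRNA and 115 control shRNA cells below 5000 UMIs, and thinning gives each remaining cell equal weight. The window also leaves out deep cells, 63 in the Cxxc5 shRNA library and 1043 in the control shRNA library at 20000 UMIs or more. The cause of the shift was not tested. Actg1, gamma-actin (chr11:120345690-120348542, minus strand), had 1360 and 1464 CPM, a ratio of -0.11 (-0.12 to -0.09). Without Actb, the other 37 genes summed to 1.85% of UMIs in the Cxxc5 shRNA library and 1.90% in the control shRNA library.

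Among the proteins that bind monomers and turn filaments over, Tmsb4x, thymosin beta-4, the main monomer-sequestering peptide of blood cells, was the most abundant of all 38 transcripts at 7603 CPM in the Cxxc5 shRNA library and 7248 CPM in the control shRNA library (log2 ratio 0.07). Its relative Tmsb10 had 618 and 674 CPM. Cfl1, cofilin, which severs filaments, had 970 and 1128 CPM (-0.22), and Pfn1, profilin, which feeds monomers to growing ends, 1241 and 1337 CPM (-0.11). Wdr1, a cofilin helper, Coro1a, the leukocyte coronin, and Cap1, a monomer-recycling protein, had log2 ratios of -0.07, -0.12 and -0.18, while Coro1c, a widely expressed coronin, had 44.3 and 39.9 CPM (0.15, the highest ratio among the 35). Summed, this role was level at 1.098% of UMIs in the Cxxc5 shRNA library and 1.097% in the control shRNA library.

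The Arp2/3 genes lay close together. Of the 7, 6 had log2 ratios below 0, the lowest at -0.15 (Actr2, an actin-related subunit), and Actr3, the other actin-related subunit, stood at 0.01. The counting interval lay below 0 for 5 of the 7 and included 0 for Arpc1b and Actr3. The most abundant subunit gene was Arpc1b, the hematopoietic form of the propeller subunit, with 1364 CPM in the Cxxc5 shRNA library and 1369 CPM in the control shRNA library. Arpc2, which with Arpc4 forms the core, had 670 and 737 CPM. All 5 nucleation promoters and GTPases had ratios below 0, between -0.20 and -0.02, though the counting interval of Wasf2 included 0. They were Was, the Wiskott-Aldrich syndrome protein, Wasf2, a WAVE subunit acting below Rac, and the switches Rhoa, Cdc42 and Rac1. Rhoa had the lowest ratio, with 197 and 226 CPM. As the share of all genes below 0 was not counted, the signs by role are a description.

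At filament ends, Capg, a calcium-regulated capping protein of macrophages (chr6:72544391-72562983, plus strand), was the measured gene that differed most, with 29.8 CPM in the Cxxc5 shRNA library and 45.4 CPM in the control shRNA library (log2 ratio -0.61, -0.70 to -0.52). The capping protein subunits Capza1, Capza2 and Capzb had ratios of 0.06, -0.08 and -0.04. Gsn, gelsolin, a severing and capping protein, had 39.2 and 41.5 CPM (-0.08), and Vasp, which lengthens filaments at the cell edge, 204 and 234 CPM (-0.20). Summed markers of monocytes and macrophages (14 genes), cells that carry much Capg, were at 2239.5 CPM and 2910.04 CPM. This sum does not measure the share of monocytes. Of the cell classes described below, late neutrophil-like cells had the highest median level of these 14 genes in both libraries, above monocyte-like cells. Summed markers of dendritic cells (8 genes) were at 80.0 and 210.9 CPM. With the shares of the cell classes set to those of the control shRNA library, the ratio of Capg was -0.40.

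The crosslinkers were level. Flna, filamin A, the alpha-actinins Actn1 and Actn4, and Lcp1, the leukocyte plastin, had log2 ratios of -0.04, 0.02, 0.05 and 0.06. Of the tropomyosins, which coat filaments, Tpm3 had 264 CPM in the Cxxc5 shRNA library and 286 CPM in the control shRNA library, and the sparse Tpm4 had 9.69 and 16.6 CPM (-0.78, -0.93 to -0.63). Tpm4 was highest in dendritic cell-like and monocyte-like cells, and its ratio was -0.33 with class shares set to those of the control shRNA library. The linkers Tln1, talin, which joins integrins to actin, Ezr, ezrin, and Msn, moesin, which anchor filaments to the membrane, had ratios between -0.16 and -0.09, and Vcl, vinculin, a talin partner, had 18.6 and 16.9 CPM.

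Other actin regulators were read from a list of 82 genes, of which 47 reached 20 CPM. Their median log2 ratio was -0.03, with 2 genes at least 1.2-fold higher in the Cxxc5 shRNA library and 3 at least 1.2-fold lower, close to what the 3.02% and 4.06% of all genes would give for a list of that length. Arpc1a, the alternative to Arpc1b in the Arp2/3 complex, had 154 CPM in the Cxxc5 shRNA library and 104 CPM in the control shRNA library (0.57), and Twf1, twinfilin, which binds monomers, had 24.3 and 19.2 CPM (0.34). Lsp1, a leukocyte protein that binds filaments, had 18.7 and 32.0 CPM (-0.78), Zyx, zyxin of adhesion sites, 25.2 and 34.6 CPM (-0.46), and Cotl1, coactosin-like 1, 182 and 236 CPM (-0.37). Serum response factor, the transcription factor that drives many actin genes together with its MRTF partners, was scarce: Srf had 18.7 and 14.8 CPM (0.34), and its cofactor genes Mkl1 and Mkl2 had 9.73 and 10.3 CPM and 6.66 and 6.66 CPM.

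The motif that serum response factor binds is the CArG box. It was searched in the RefSeq promoter windows of GRCm38.p6, which run from 250 bases before a gene's start; the motif is its own reverse complement, so one search covers both strands, and no other motif was searched. Of the 36 member genes with a promoter window, 3 held it (8.33%), against 488 of 27025 genes (1.81%); Actb and Rac1 had no window in the table. The 3 are shown because their level can be set beside that of the other genes, with the CArG box in capitals, 5′ to 3′ on the gene's strand, for Actg1 at chr11:120348551-120348610 (minus strand, motif 90 bases before the start), Vcl at chr14:20929148-20929205 (plus strand, 227 bases) and Arpc4 at chr6:113377863-113377897 (plus strand, 250 bases, at the window's edge).
Actg1: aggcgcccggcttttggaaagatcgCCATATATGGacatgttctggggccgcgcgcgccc
Vcl: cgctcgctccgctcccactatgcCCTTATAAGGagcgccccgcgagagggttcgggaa
Arpc4: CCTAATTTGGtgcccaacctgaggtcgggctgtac
These genes had log2 ratios of -0.11, 0.14 and -0.14 between the libraries, within the range of the other genes. A match is a run of letters and does not show that the factor binds there.

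Levels differed more between classes of cell than between the libraries. Cells were placed in classes by UMIs of marker genes per 10000 UMIs of the cell, and a class took a cell type name only where at least 3 listed markers led it. The leading markers include genes used to place the cells, so this naming rule does not test the names. Dendritic cell-like cells (MHC class II genes) were 66 in each library, mast cell or basophil-like cells (Cpa3 and others) 165 in the Cxxc5 shRNA library and 92 in the control shRNA library, late neutrophil-like cells (S100a8 with Ltf, Ngp, Camp and Lcn2) 448 and 300, and monocyte-like cells (Csf1r, Ccr2 and others) 357 and 299. S100a8-high cells below the threshold for the late granule genes numbered 742 and 457. Cells high in the primary granule proteases Elane, Mpo, Prtn3 and Ctsg numbered 2688 and 1000. The remaining cells, led by Cd34, Serpina3g, Sox4 and Pf4, numbered 1538 and 698. These classes are called by their genes. The borders are not sharp. Within 0.32 of the monocyte threshold on the log2 scale, above or below it, lay 225 Cxxc5 shRNA cells and 158 control shRNA cells. By comparison, 406 and 357 cells were at or above that threshold. For the protease threshold, 1334 and 583 cells lay that near on either side, and 3677 and 1574 were at or above it.

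Summed over the 38 genes, the order of the classes was nearly the same in both libraries. Late neutrophil-like cells gave 3.76% of their UMIs to these genes in the Cxxc5 shRNA library and 3.35% in the control shRNA library, and dendritic cell-like cells 3.64% and 3.55%. S100a8-high cells followed with 2.84% and 2.83%, then monocyte-like cells with 2.04% and 2.23% and protease-high cells with 1.964% and 1.999%. Mast cell or basophil-like cells (1.71% and 1.77%) and the remaining cells (1.69% and 1.78%) were lowest. The highest and second-highest classes changed places between the libraries, and so did the lowest and second-lowest. The late neutrophil-like value was high although the listed marker genes alone took 21.0% and 21.2% of UMIs in those cells, against 2.981% and 2.998% in protease-high cells.

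**Figure D2:**
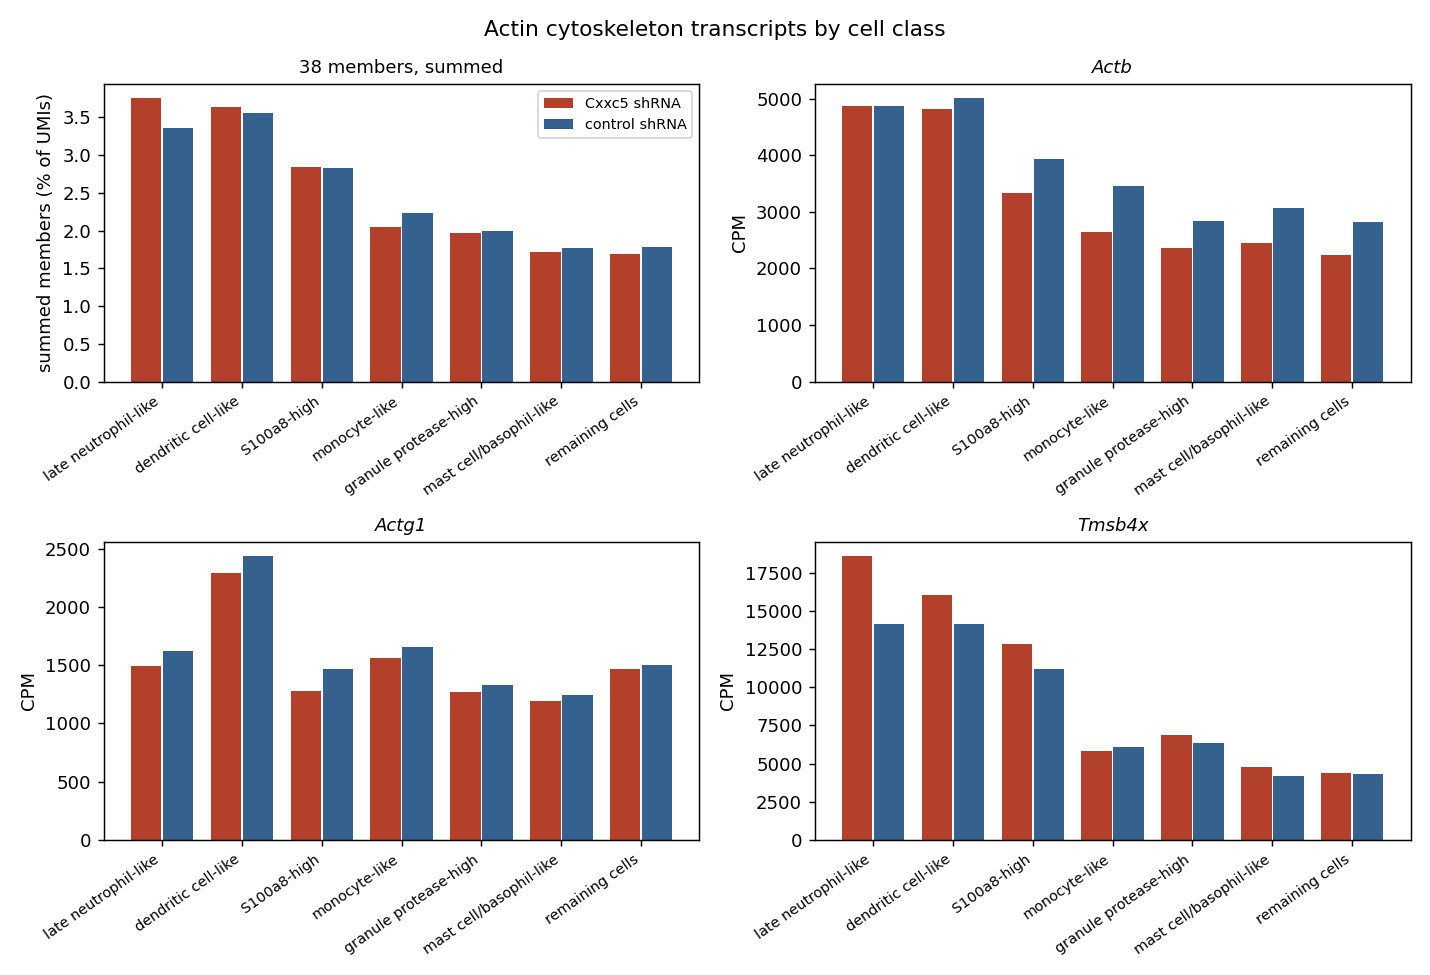
Summed share of the 38 genes in percent of UMIs, and levels of Actb, Actg1 and Tmsb4x in CPM, in 7 cell classes of the Cxxc5 shRNA library (left bars) and the control shRNA library (right bars). Late neutrophil-like cells (3.76% and 3.35%) and dendritic cell-like cells (3.64% and 3.55%) stand highest, and Tmsb4x follows that order more closely than Actg1 does.

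Set against protease-high cells, late neutrophil-like cells had 24 of 37 measured members at least 1.2-fold higher in both libraries and 2, Coro1c and Actn4, at least 1.2-fold lower. Of all genes measured there, 13.5% were higher and 62.2% lower in that way, so most genes were lower there while most members were higher. Tmsb4x had 18606 CPM in late neutrophil-like cells of the Cxxc5 shRNA library and 14125 CPM in those of the control shRNA library, against 6877 and 6314 CPM in protease-high cells. Gsn had 236 and 205 CPM, against 20.6 and 16.6 CPM. Vasp had 491 and 480 CPM, against 184 and 199 CPM, and Coro1a 753 and 767 CPM, against 324 and 336 CPM. Tmsb10 did not share this and stood at 327 and 537 CPM, against 505 and 520 CPM.

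S100a8-high cells held an intermediate place. They had 15 of 36 members at least 1.2-fold higher in both libraries and 2 lower, Tmsb10 and Coro1c, against 10.7% and 31.8% of all genes. Tmsb4x was at 12854 and 11219.7 CPM there, and Gsn at 95.4 and 83.0 CPM, both between protease-high and late neutrophil-like cells. Arpc1b and Arpc4 were highest in this class in both libraries, at 1623 and 1598 CPM and 196 and 215 CPM.

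Of 36 members, 21 were at least 1.2-fold higher in dendritic cell-like than in protease-high cells in both libraries and none lower, against 21.7% and 36% of all genes. Of these 21, 15 were also among the 24 of 37 higher in late neutrophil-like cells. The matching overlap over all genes was not counted, so the 15 is a description. Tmsb4x and Actb led the sums of both classes: in dendritic cell-like cells Tmsb4x had 16024 and 14146 CPM and Actb 4814 and 5017 CPM. Actg1 peaked here, with 2289 CPM in the Cxxc5 shRNA library and 2438 CPM in the control shRNA library, as did Tmsb10 (2191 and 1882 CPM), Lcp1 (423 and 417 CPM), Actn1 (213 and 210.2 CPM), Capg (167 and 254 CPM) and Tpm4 (135 and 201 CPM). Vcl was lowest here, at 6.75 and 4.14 CPM, from 4 UMIs in each library.

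In monocyte-like cells, 13 of 36 members were at least 1.2-fold higher than in protease-high cells in both libraries and none lower, against 13.8% and 17% of all genes. Tmsb10 had 1441 CPM in the Cxxc5 shRNA library and 1386 CPM in the control shRNA library, Capg 70.5 and 96.8 CPM, and Tpm4 59.5 and 78.6 CPM, where protease-high cells had 1.47 and 0.89 CPM of Tpm4. Tmsb4x stayed near the protease-high level at 5813 and 6069 CPM. Mast cell or basophil-like cells had 7 members higher and 8 lower of 36, against 20.2% and 30.4% of all genes; Actn1 was scarce in them, with 9 and 16 UMIs in all. The remaining, Cd34-led cells had 5 higher and 4 lower of 35, against 14.5% and 10.6%, and the lowest Gsn, at 6.29 and 6.95 CPM.

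Taking each member by itself, the class with its highest level was the same in both libraries for 24 of 38. It was the late neutrophil-like class for 11, the dendritic cell-like class for 10, the S100a8-high class for 2 and the monocyte-like class for 1. The same tally was not made over all genes, so these counts are a description. The 38 include Cap1, Tpm4 and Vcl, which stayed below 20 CPM, and the dendritic cell-like class had only 66 cells per library. Some members hardly varied: over the 7 classes, highest over lowest was 1.31-fold in the Cxxc5 shRNA library and 1.29-fold in the control shRNA library for Capzb. It was 37.5-fold and 29.4-fold for Gsn. The gene whose level followed the summed share most closely over the 14 class and library points was Sh3bgrl3, a small thioredoxin-fold protein (Pearson r 0.97), ahead of Spi1, the myeloid transcription factor PU.1 (0.90), Gm5483 (0.89), Napsa (0.88) and Gltp (0.88), among 1307 genes of at least 100 CPM. The points share libraries, depth and total, and r is a description.

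Within classes the libraries were compared again. Late neutrophil-like cells had 2 of 37 members at least 1.2-fold higher in the Cxxc5 shRNA library, Tmsb4x (log2 ratio 0.40) and Coro1c (0.62, from 114 and 73 UMIs), and 1 lower, Tmsb10 (-0.71, -0.82 to -0.61), against 26.8% and 10.7% of all genes. The median level of granulocyte-monocyte progenitor markers in these cells was 139 UMIs per 10000 in the Cxxc5 shRNA library and 71.9 in the control shRNA library, and the part of this difference in the ratios was not tested. S100a8-high cells had 0 higher and 3 lower of 36 (Rhoa, Capg and Msn; background 8.19% and 6.9%). Monocyte-like cells had 1 higher, Capza1, and 8 lower of 36 (background 8.5% and 11%): Actb, Actr2, Was, Capg, Gsn, Vasp, Tpm4 and Ezr. Protease-high cells had 1 higher, Gsn, and 2 lower of 35 (2.72% and 3.57%), and the remaining cells 0 higher and 2 lower of 34 (2.77% and 3.37%), the lower genes being Actb and Capg in both.

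Capg was the one member with a ratio below 0 in all 7 classes by a margin of at least 0.22, from -0.60 in dendritic cell-like cells to -0.22 in late neutrophil-like cells; in mast cell or basophil-like and in late neutrophil-like cells its counting interval included 0. Actb had 2644 CPM in monocyte-like cells of the Cxxc5 shRNA library and 3456 CPM in those of the control shRNA library (-0.39), 2367 and 2843 CPM in protease-high cells (-0.26) and 2242 and 2827 CPM in the remaining cells (-0.33). In late neutrophil-like cells it had 4879 and 4869 CPM (0.00).

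Per cell, Actb was lower in the Cxxc5 shRNA library at each quartile: the lower quartile was 945 CPM in Cxxc5 shRNA cells and 1090.3 CPM in control shRNA cells, the median 1483 and 1959 CPM and the upper quartile 3782 and 6469 CPM. Actb had a second, lower peak in both libraries, with a shallow dip near 4000 CPM, whereas Actg1 had a single peak. Cells at or above 4000 CPM, a threshold set after the distribution had been seen, numbered 1437 of 6004 in the Cxxc5 shRNA library (23.9%, 22.9 to 25.0%) and 1030 of 2912 in the control shRNA library (35.4%, 33.6 to 37.1%). The median Actb level was 7630.3 CPM in high and 1191 CPM in low Cxxc5 shRNA cells, and 8341 CPM in high and 1239.99 CPM in low control shRNA cells. Since the groups are split on Actb itself, their own ratios are a description and cannot apportion the difference: summed over high cells, Actb stood at 8064 CPM in the Cxxc5 shRNA library and 8389.8 CPM in the control shRNA library (log2 ratio -0.06), and over low cells at 1391 and 1465 CPM (-0.07). Of all cells, 433 and 237 lay within 0.32 of that threshold on the log2 scale.

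**Figure D3:**
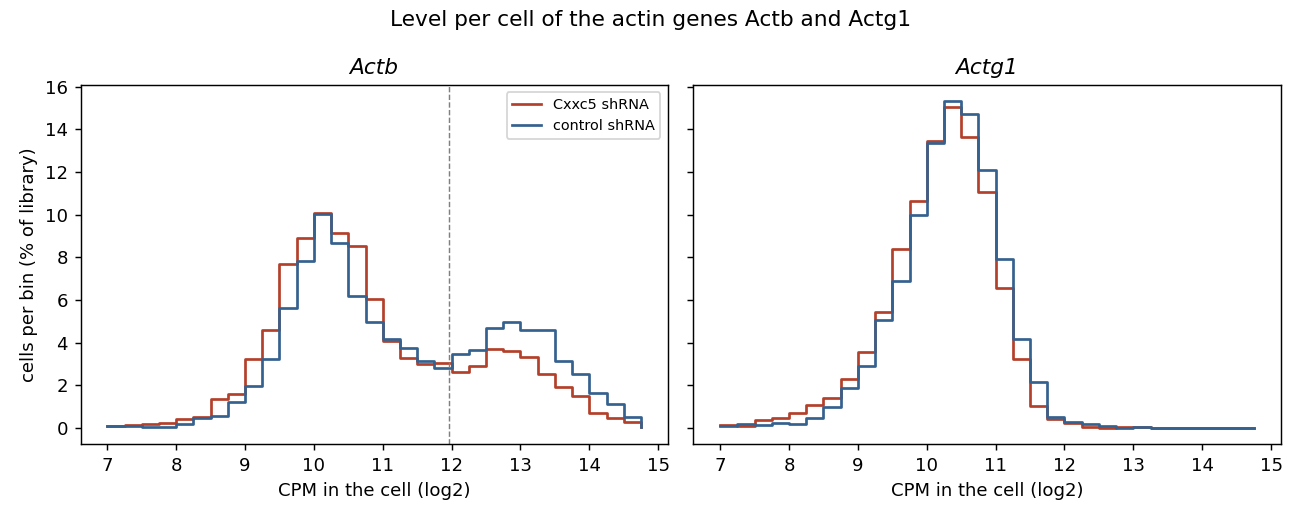
Percent of each library's cells by the level of Actb (left) and Actg1 (right) in the cell, on a log2 CPM axis; the dashed line is 4000 CPM. Actb has a second peak above the line, which holds 23.9% of Cxxc5 shRNA and 35.4% of control shRNA cells, and Actg1 has none.

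High cells occurred in each of the 7 classes in both libraries, at 19.4 to 34.6% of the class in the Cxxc5 shRNA library and 25.0 to 40.9% in the control shRNA library. In late neutrophil-like cells the shares were alike, 34.6% (30.2 to 39.2%) and 35.7% (30.2 to 41.4%). In protease-high cells they were 20.9% (19.4 to 22.5%) and 32.5% (29.6 to 35.5%), and in the remaining cells 24.8% and 37.7%. With class shares set to those of the control shRNA library, the Cxxc5 shRNA share was 24.8%, a value chosen for computation after the data were seen.

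High was set against low cells within 5 classes of each library, 10 comparisons in all, leaving out the 2 smallest classes. Actb was 2.28 to 2.70 higher on the log2 scale, which the threshold itself fixes. Of the other 34 measured members, 19 were past 1.2-fold in no comparison either way, against 19.9% of all genes of at least 20 CPM, a share that also depends on how abundant a gene is. Among the 19 were Actg1, Pfn1, Cfl1, Tmsb10, Arpc1b, Cdc42 and Rac1. Actr2, an actin-related subunit of Arp2/3, was at least 1.2-fold higher in 10 of 10 (log2 0.29 to 0.76), against 0.855% of all genes. The sparse Tpm4, below 20 CPM and not among the 34, had counts to compare in 9. It was that much higher in 6 of them and that much lower in 1 (log2 -0.28 to 2.63). In protease-high cells thinned to 5000 UMIs, the variance of Actb over its mean was 15.1 in the Cxxc5 shRNA library and 23.0 in the control shRNA library, against a median of 1.02 and 1.03 over all genes. Tmsb4x had 5.08 and 4.34, and the other 36 members lay between 0.97 and 1.62 and between 0.96 and 1.78. This ratio also depends on how abundant a gene is, and genes were not matched for that. Actb averaged 11.3 and 18.5 UMIs in these thinned cells, and Tmsb4x 34.6 and 32.3. Across these cells, Pearson correlations of Actb with the 12 other members of at least 300 CPM ran from -0.04 to 0.13 and from -0.11 to 0.25, a description over cells of 1 library each.

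High cells were also shallow cells. Their median depth was 7660.0 UMIs in the Cxxc5 shRNA library, against 11058 in low cells, and 9423.5 in the control shRNA library, against 19440.0, and they were shallower than low cells in 7 of 7 classes of each library. They did not stand apart in mitochondrial UMIs. These made up 4.06% of UMIs in high and 3.96% in low Cxxc5 shRNA cells, and 4.04% and 3.84% in control shRNA cells. The median doublet scores of high cells were lower, 0.051 against 0.067 and 0.044 against 0.049. The caller found only 14 and 8 doublets, and scores were not compared at equal depth, so they say little about doublets. Malat1, a nuclear RNA, was somewhat higher in high cells, at 4119.7 against 3652 CPM and 4523 against 3893 CPM. The part of depth in the Actb groups was not tested.

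Cells were ordered by depth and split into 5 bins of equal size. The shallowest bin had 5962 CPM of Actb in the Cxxc5 shRNA library and the deepest 2191 CPM, and in the control shRNA library they had 9219 and 2513 CPM. The log2 ratio of shallowest over deepest bin was 1.44 and 1.87, and it lay between 0.98 and 1.94 in all 10 class and library combinations. The other 37 members summed to 2.13% in the shallowest and 1.73% in the deepest bin of the Cxxc5 shRNA library, and to 1.98% and 1.78% in the control shRNA library. Of 36 members, 7 were at least 1.2-fold higher in the shallowest bin and 3 lower in the Cxxc5 shRNA library (12.7% and 42% of all genes), and 11 higher and 3 lower in the control shRNA library (16.7% and 39.5%). Within classes, 5 of the other 34 measured members were at least 1.2-fold higher in the shallowest bin in 6 or more of 10 combinations, against 7.02% of all genes. They were Gsn (8, with a counting interval above 0 in 4), Actr2 (7, and 6), Capg (7, and 4), Wasf2 (6, and 3) and Tmsb10 (6, and 6). Actg1 was lower in 8, each with an interval below 0, as 13.8% of all genes were in 8 or more.

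The share of high cells was also set out by depth window. Among cells of 7500 to 10000 UMIs, 19.0% of 1261 Cxxc5 shRNA cells and 71.8% of 308 control shRNA cells were high. Among cells of 15000 to 20000 UMIs it was 14.5% (11.9 to 17.5%) of 634 and 18.5% (15.7 to 21.6%) of 687, intervals that overlap. Below 5000 UMIs it was 74.1% and 73.9%. Depth of a cell here joins RNA content and sequencing depth of its library, and these cannot be told apart.

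**Figure D4:**
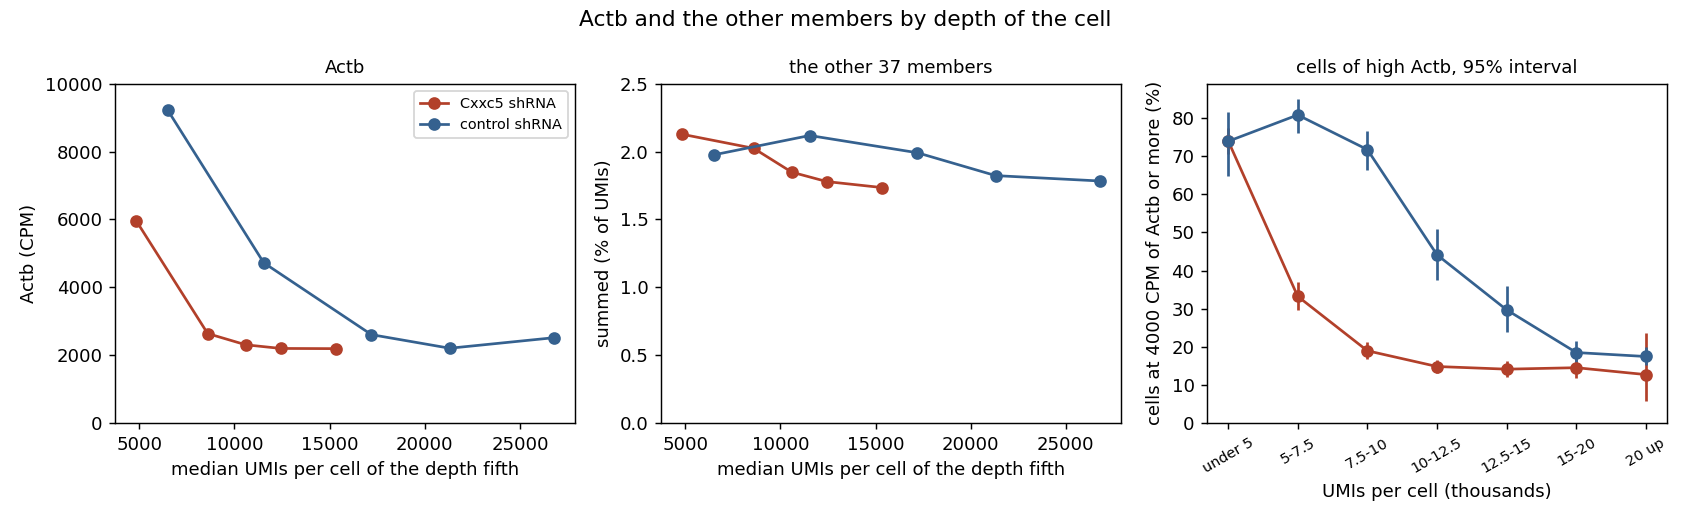
Actb in CPM (left) and the other 37 members summed in percent of UMIs (middle) in 5 bins of cells by depth, plotted at the median UMIs of the bin, and the percent of cells at or above 4000 CPM of Actb by UMIs per cell with 95% intervals (right), for the Cxxc5 shRNA and control shRNA libraries. Actb is lower in the deepest than in the shallowest bin of both libraries, and the other members summed differ less, and the shares of high cells meet below 5000 UMIs (74.1% and 73.9%).

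Genes that moved with Actb were sought in one set of cells and read in another. In protease-high cells of the control shRNA library, the 10 genes of at least 50 CPM with the highest ratio of high over low cells, leaving out members and markers, were Rpgrip1, Cbx3, Supt16, Alkbh5, Pim1, Kdelr2, Arglu1, Wtap, Cdk6 and Mcmbp. The Cxxc5 shRNA library played no part in the choice. In it, all 10 were at least 1.2-fold higher in high cells in 5 of 5 classes. Over both libraries, 0.855% of all genes of at least 20 CPM were that much higher in 10 of 10 comparisons. For the Cxxc5 shRNA library alone, the share of all genes was not counted. In its protease-high cells, Rpgrip1, a gene best known from photoreceptor cilia, had 159 CPM in high and 30.1 CPM in low cells (log2 2.397), and Cbx3, heterochromatin protein 1 gamma, 536 and 156 CPM (1.79). Pim1, a cytokine-induced kinase, had 473 and 171 CPM (1.47), and Cdk6, the cell cycle kinase, 439 and 229.6 CPM (0.94). The set shares no actin role; it includes an RNA demethylase (Alkbh5), a subunit of the RNA methyltransferase complex (Wtap) and a histone chaperone subunit (Supt16). Rpgrip1 (chr14:52110704-52163546, plus strand) and Supt16 (chr14:52160414-52197416, minus strand) overlap at their 3′ ends, on opposite strands, in GENCODE M21 on GRCm38. Whether reads of either gene were counted for the other was not tested.

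The cells of each class were then ordered by the summed level of these 10 genes. Because the genes were chosen on Actb in control shRNA cells, the control shRNA values partly restate that choice, and the Cxxc5 shRNA values are those to read. From the lowest to the highest of 5 bins, Actb was at 1191, 1257, 1575, 2791 and 7633 CPM in the Cxxc5 shRNA library and at 1217, 1380.2, 1893, 5097 and 10116 CPM in the control shRNA library. High cells were 2.49% of the lowest and 87.0% of the highest bin in the Cxxc5 shRNA library, and 1.71% and 98.4% in the control shRNA library. Actg1 stayed between 1269 and 1429.9 CPM and between 1331 and 1519 CPM, and the 37 members other than Actb between 1.81 and 1.89% and between 1.87 and 1.92% of UMIs. Median depth was 10091 UMIs in the lowest and 7750.0 UMIs in the highest bin of the Cxxc5 shRNA library and 17995 and 8180.5 UMIs in the control shRNA library. Over all cells, Rpgrip1 and Pim1 had log2 ratios of -0.31 and -0.29 between the libraries, near that of Actb, while Cbx3 had -0.10 and Wtap and Cdk6 0.14 and 0.11.

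**Figure D5:**
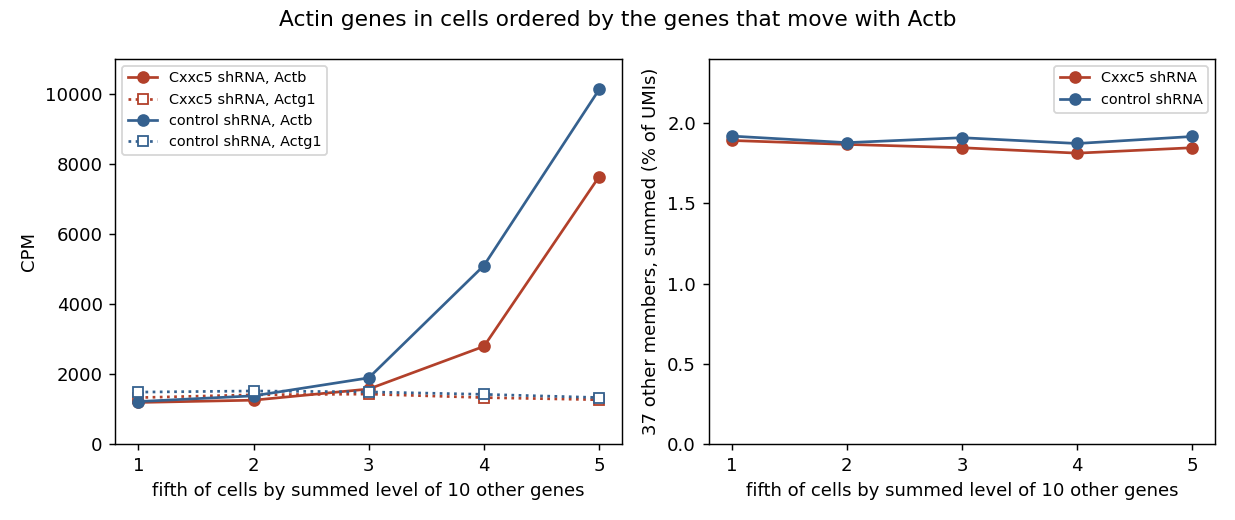
Actb and Actg1 in CPM (left) and the 37 members other than Actb summed in percent of UMIs (right) in 5 bins of cells, ordered within each class by the summed level of the 10 genes named above, for the Cxxc5 shRNA and control shRNA libraries. Actb reaches 7633 and 10116 CPM in the highest bin, and Actg1 and the other members stay level.

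Counts of 7 members are uncertain, because the last 400 bases of their transcripts match another gene of GENCODE M21 at 95% identity or more over at least 90 bases: Pfn1, Cfl1, Tmsb10, Actr3, Was, Capza1 and Tpm3. Neither Actb nor Actg1 had such a match.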

How the data were processed

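Both tables hold raw UMI counts by gene and barcode, as deposited. Per the labels' protocols, the libraries were 10x 3′ version 2, and the submitters' processing notes name Cell Ranger 2.1.1 and mm10; the annotation release is not given in the sources used here. Cells with at least 500 genes and at most 10% mitochondrial UMIs were kept: 6004 of 6015 barcodes with the Cxxc5 shRNA and 2912 of 2925 with the control shRNA (62867598 and 49268318 UMIs). Levels are counts summed over cells, as CPM. Intervals are at 95%: exact from the split of counts for ratios, Poisson for sums and Clopper-Pearson for shares of cells. They treat UMIs as independent and cover counting error only. No p-value was computed. Scrublet (scanpy 1.11.5) called 14 and 8 doublets, which is too few for the caller to have worked, so none were removed in the values reported. The arithmetic was tested on simulated data. Named genes are the 38 members, Cxxc5, the other actin regulators past 1.2-fold, the serum response factor genes, the 5 genes most like the summed share and the 10 genes highest in Actb-high cells. The members, lists, marker thresholds and the Actb threshold were chosen with earlier results of these data known. Alternatives covered the cell filter, doublets, depth, denominator, thresholds, class shares and dominant genes.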

Additional observations from a re-analysis of the deposited data

How the results depend on the processing

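No paired analysis was possible because each group has 1 library. No result changed direction under the alternatives run; the causes of the shifts below were not tested. Alternatives that leave out high-Actb cells, and all those for the high-Actb share, were chosen after seeing the data. The log2 ratio of the summed share (-0.072) was -0.12 after thinning to 5000 UMIs, -0.22 in cells of 5000 to 20000 UMIs, -0.087 with marker, mitochondrial and ribosomal protein genes out of the total, -0.016 with class shares of the control shRNA library, -0.034 without Actb, -0.12 without the 5 most abundant members, -0.098 as a mean over cells and -0.037 without high-Actb cells. Members at least 1.2-fold higher (0) numbered 1 in cells of 5000 to 20000 UMIs and 1 at 1.1-fold. Those lower (2) numbered 6 in cells of 5000 to 20000 UMIs, 11 at 1.1-fold, and 1 each at 1.5-fold, at 50 CPM, with control class shares, without Actb, without the top 5 and without high-Actb cells. The members' median (-0.11) was -0.061 with control class shares. Actb itself (-0.31) was -0.65 after thinning and -0.76 in cells of 5000 to 20000 UMIs. Late neutrophil-like over protease-high cells (0.94 with the Cxxc5 shRNA, 0.75 with the control shRNA) gave 1.004 and 0.81 with thresholds halved, 0.79 and 0.58 doubled, 0.97 and 0.76 without high doublet scores, 1.12 and 0.97 with the reduced total, 0.92 and 0.68 in cells of 5000 to 20000 UMIs, 0.90 and 0.73 without high-Actb cells, and 0.92 with the Cxxc5 shRNA without Actb. Shallowest over deepest bin of the summed share (0.48 and 0.51) gave 0.36 and 0.46 thinned, 0.62 and 0.64 with the reduced total, 0.29 and 0.15 without Actb, and 0.50 with the Cxxc5 shRNA without high doublet scores. Within classes it was 0.39 and 0.33 (late neutrophil-like), 0.32 and 0.45 (S100a8-high), 0.26 and 0.41 (monocyte-like), 0.22 and 0.48 (protease-high) and 0.29 and 0.37 (remaining). High-Actb cells (23.9% and 35.4%) were 29.0% and 40.0% at 3000 CPM, 17.3% and 26.9% at 6000 CPM, 18.0% and 43.5% among cells of 5000 to 20000 UMIs, and 18.6% with the Cxxc5 shRNA after thinning.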
